A study of Mus musculus with 6 samples.

Results

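LIM-only proteins and their cofactors were followed in sorted ganglion cells of the mouse retina. The set was chosen by name as Lmo1, Lmo2, Lmo3, Lmo4, Ldb1, Ldb2 and Lhx2, which are 7 of the 18193 genes with a probe set of their own on the array. Probe sets were taken where the platform annotation maps them to a member and to no other gene, which gave 9 of the 45037 probe sets that are not controls. Ldb2 had 3 of these and each other member had 1, and for Ldb2 the brightest one on average leads. All cells came from C57BL/6 retinas at postnatal day 6, and the RNA went through 2 rounds of amplification before labelling. The Hb9 group held cells positive for GFP and Thy1, with GFP from the Hb9 reporter. The Drd4 group held cells positive for the same markers, with GFP from the Drd4 reporter. The Thy1 group held cells taken for Thy1, with no GFP among their labels. Each group had 2 arrays, which the series text ascribes to different litters. GFP in these reporter lines is known to mark particular direction-selective ganglion cells of the ON-OFF class, whereas a Thy1 antibody takes ganglion cells of many types and any other cell that carries the antigen.

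LIM-only proteins consist of little more than a pair of LIM domains and do not bind DNA themselves. LDB proteins dimerise and hold LIM domains, and so link LIM-homeodomain factors such as LHX2 and ISL1 into larger complexes on DNA. LMO proteins occupy the same surface of LDB and can compete with LIM-homeodomain factors for it, or bridge LDB to bHLH and GATA factors. In the eye Lhx2 is known for its role in the early eye field, in retinal progenitors and in Muller glia, and Isl1 for its role in the development of ganglion cells.

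The ganglion cell label was checked with 8 measured markers, of which 7 or 8 lay above the background reference on every array. Their levels also differed between groups. In Drd4 against Thy1 3 of 8 passed as higher, the neurofilament gene Nefm (0.67 ± 0.12), the transcription factor gene Pou4f3 (0.77 ± 0.19) and Thy1 itself (0.52 ± 0.10). In Hb9 against Thy1 Nefm passed as higher (0.57 ± 0.12), and Pou4f3 was at least 1.65-fold lower in Hb9 than in Drd4 (adjusted p = 0.00574 in limma), with Hb9 below background. Without Drd4 replicate 2 or Thy1 replicate 1, or with no intensity trend, Nefm was the 1 that passed in Drd4, and in Hb9 it missed the threshold without Hb9 replicate 1 or either Thy1 replicate. The part of these shifts in the member differences was not tested. The background reference is the highest intensity among the Bacillus control probe sets of an array and ran from 30.8 to 41.6. Median intensities of the arrays ran from 45.5 to 47.7, and log2 intensities of replicate arrays correlated across genes at 0.988 to 0.993. Member values below are linear intensities as deposited, and intensities of different probe sets are not set against each other because each probe set has its own response. Differences are log2 differences from limma with standard errors, and adjusted p-values are Benjamini-Hochberg values over all 18193 genes. A gene was called where the adjusted p was under 0.05, with n = 2 arrays in each group throughout. Intervals are 95% confidence intervals of single differences.

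**Figure D1:**
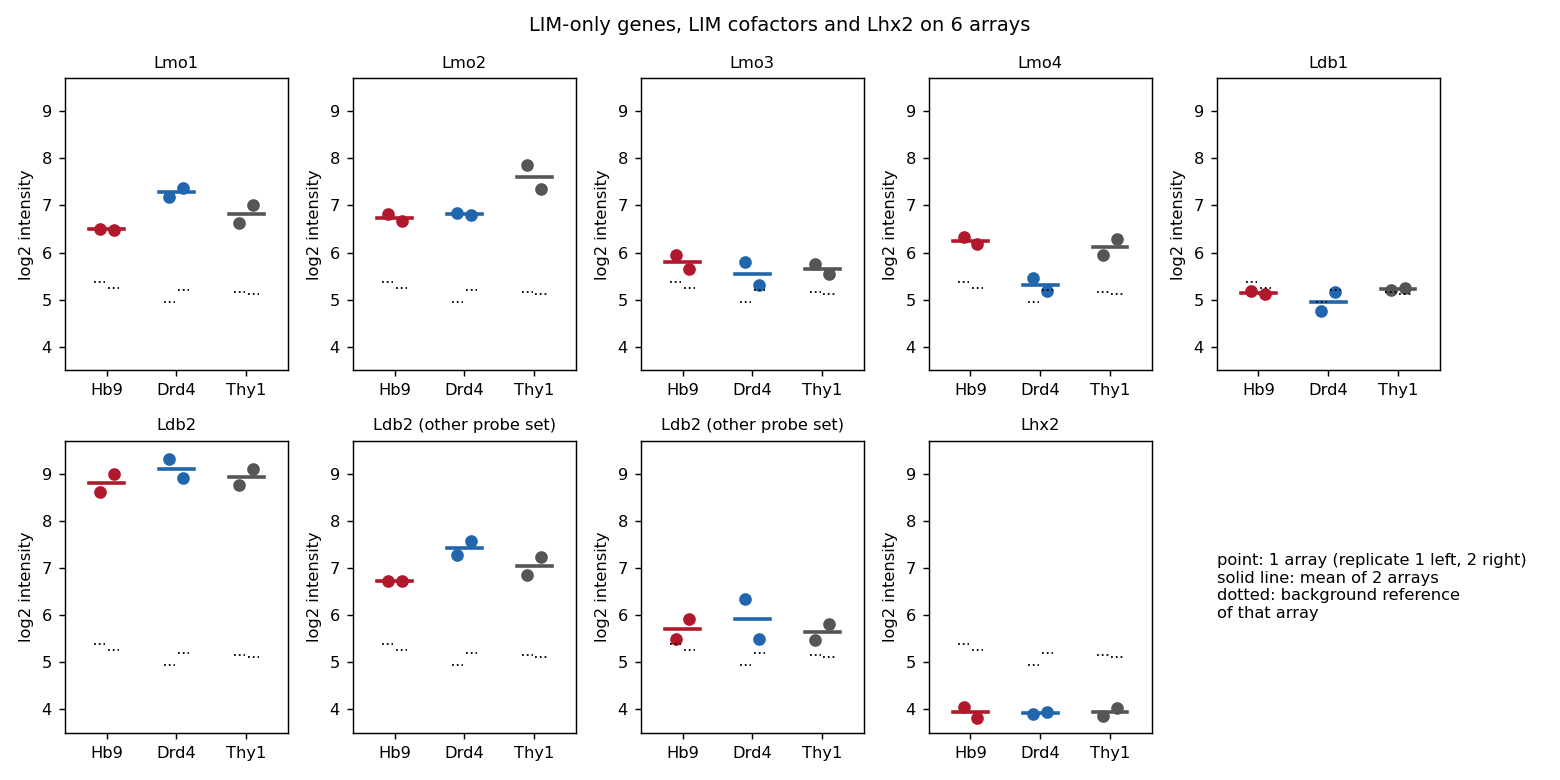
Log2 intensity (y axis) of the 9 member probe sets in the Hb9, Drd4 and Thy1 groups. Each point is 1 array, solid lines are means of 2 arrays and dotted lines are the background reference of the array. Lmo1 was highest in Drd4, Lmo2 in Thy1, and Lmo4 lowest in Drd4, while Lhx2 stayed below the reference on all 6 arrays.

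Between the direction-selective lines, Lmo4 and Lmo1 differed in opposite directions. Lmo4 was higher in Hb9 cells than in Drd4 cells by 0.93 ± 0.17 on the log2 scale (1.91-fold), and Lmo1 was lower in Hb9, at -0.79 ± 0.17 (1.73-fold). Lmo2 was lower in both lines than in the Thy1 sort. Called members numbered 2 of 7 in Hb9 against Drd4, beside 6.12% of all genes, 1 of 7 in Hb9 against Thy1, beside 6.71% of all genes, and 2 of 7 in Drd4 against Thy1, beside 5.47% of all genes. With 7 genes such counts are read as those of single genes, and nothing is drawn from them about the set. The members' median log2 difference was 0.01 in Hb9 against Drd4, -0.07 in Hb9 against Thy1 and -0.10 in Drd4 against Thy1, beside 0.04, 0.04 and 0.02 over all genes. In bulk samples of this kind, fewer expressing cells and less RNA per cell cannot be told apart.

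**Figure D2:**
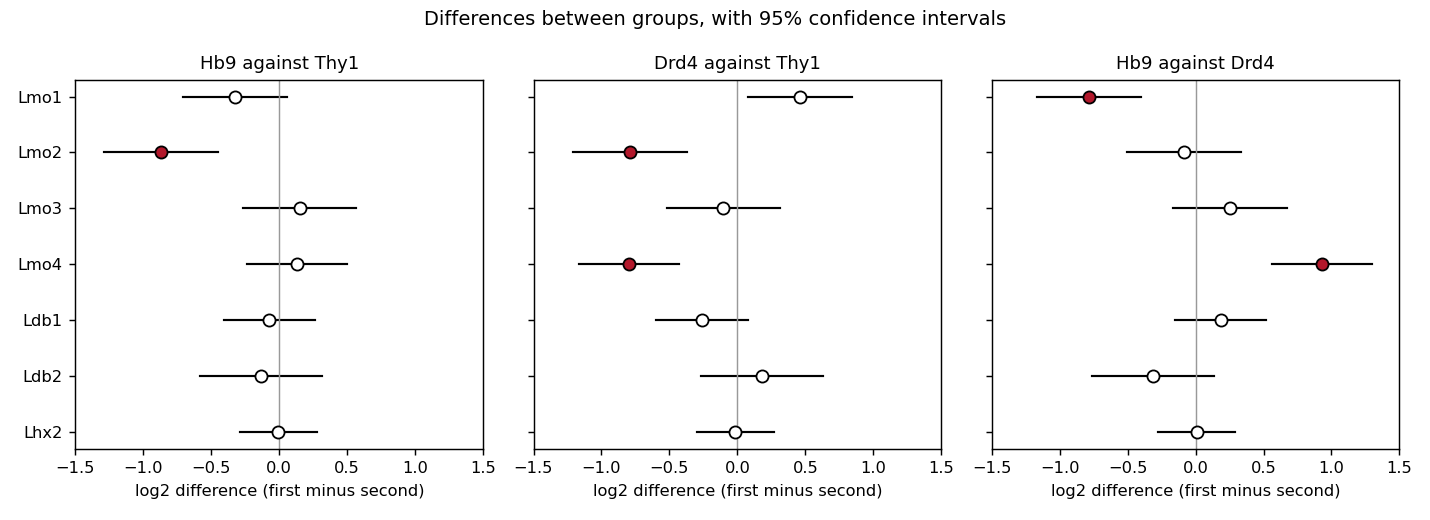
Log2 difference (x axis) of the leading probe set of each member (rows) in Hb9 against Thy1, Drd4 against Thy1 and Hb9 against Drd4, with 95% confidence intervals from limma. Filled points have an adjusted p under 0.05 over all genes. Lmo2 is the filled gene shared by both comparisons with Thy1, whose arrays they share.

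The promoters of the pair that differed between the lines are printed for context. Each window runs from 250 bases before to 50 after the most upstream start that RefSeq lists (build GRCm38.p6). The Lmo1 window lies at chr7:109175158-109175457 and the Lmo4 window at chr3:144205206-144205505, both on the minus strand. Capitals mark TAATTA, a core that many homeodomain factors can bind, the LIM type included, and CANNTG, the E-box read by bHLH factors.
Lmo1: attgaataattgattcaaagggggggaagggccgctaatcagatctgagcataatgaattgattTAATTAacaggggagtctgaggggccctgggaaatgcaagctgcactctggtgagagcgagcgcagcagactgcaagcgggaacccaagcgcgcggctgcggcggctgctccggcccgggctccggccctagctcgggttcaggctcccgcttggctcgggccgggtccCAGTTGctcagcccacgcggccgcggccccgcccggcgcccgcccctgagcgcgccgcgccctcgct
Lmo4: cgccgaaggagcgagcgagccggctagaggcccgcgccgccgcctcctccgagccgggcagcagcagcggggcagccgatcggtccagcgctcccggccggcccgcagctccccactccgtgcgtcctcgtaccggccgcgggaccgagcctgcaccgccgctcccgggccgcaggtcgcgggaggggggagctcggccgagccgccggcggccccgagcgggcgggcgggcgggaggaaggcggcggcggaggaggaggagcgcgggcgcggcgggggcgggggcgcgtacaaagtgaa
The Lmo1 window holds TAATTA 1 time and CANNTG 1 time, at separate places, and no match to these letters lies in the Lmo4 window. RefSeq lists 2 promoter windows for Lmo1, both with both patterns, and 3 for Lmo4, of which 2 hold CANNTG and 0 hold TAATTA. Both patterns read the same on either strand. Of 32851 promoter windows of 300 bases in the RefSeq table, 5.29% hold TAATTA and 72.3% hold CANNTG. A match describes letters and is not a measured site.

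Lmo4 encodes a widely expressed LIM-only protein that is known to bind LDB1 and DEAF1. Its probe set (1420981_a_at) read 80.3 and 72.3 in the Hb9 arrays, 43.7 and 36.4 in the Drd4 arrays, and 61.9 and 78.0 in the Thy1 arrays. The Drd4 arrays lay below all the others, and Hb9 and Thy1 overlapped. Drd4 replicate 2 was just under its background reference of 36.7 and replicate 1 was above its reference of 30.8, so 1 of 2 Drd4 arrays measured the gene above background. Lmo4 passed as higher in Hb9 than in Drd4 (adjusted p = 0.00919 in limma). It passed as lower in Drd4 than in Thy1, at -0.80 ± 0.17 (1.74-fold, adjusted p = 0.0181 in limma). In Hb9 against Thy1 the difference was 0.13 ± 0.17, with an interval from -0.24 to 0.50 (adjusted p = 0.701 in limma). Without Hb9 replicate 1 the Hb9 against Drd4 difference was 0.86 and no longer passed (adjusted p = 0.0809 in limma). The Drd4 against Thy1 difference no longer passed at -0.67 without Drd4 replicate 2 (adjusted p = 0.103 in limma) or at -0.63 without Thy1 replicate 2 (adjusted p = 0.142 in limma).

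Lmo1 encodes a LIM-only protein of the nervous system, known as an oncogene in T-cell leukaemia and neuroblastoma. Its probe set (1418478_at) read 91.1 and 88.8 in the Hb9 arrays, 146 and 166 in the Drd4 arrays, and 98.4 and 129 in the Thy1 arrays. The groups did not overlap, with Drd4 highest, Thy1 between and Hb9 lowest. Hb9 against Drd4 passed (adjusted p = 0.0251 in limma), and neither step to the Thy1 group did. Drd4 against Thy1 stood at 0.46 ± 0.17, with an interval from 0.08 to 0.84 (adjusted p = 0.22 in limma). Hb9 against Thy1 stood at -0.33 ± 0.17, with an interval from -0.71 to 0.06 (adjusted p = 0.296 in limma). The Hb9 against Drd4 difference no longer passed at -0.81 without Hb9 replicate 1 (adjusted p = 0.134 in limma), at -0.77 without Hb9 replicate 2 (adjusted p = 0.128) or at -0.70 without Drd4 replicate 2 (adjusted p = 0.0824).

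Markers of other cells were read on the Hb9 and Drd4 arrays beside these differences. In limma 0 of 12 microglial markers passed between Hb9 and Drd4, with 1 at an unadjusted p under 0.05. Their summed intensity was 1656 and 2006 in Hb9 against 2954 and 1046 in Drd4. Of 6 pericyte markers 0 passed, with 3 at an unadjusted p under 0.05, and their sum was 1809 and 1431 in Hb9 against 1014 and 175 in Drd4. Without Drd4 replicate 1, the microglial markers Ctss and Ptprc and the pericyte markers Pdgfrb, Rgs5 and Abcc9 passed as higher in Hb9. Without Drd4 replicate 2, C1qa and P2ry12 passed as lower in Hb9 and Rgs5 as higher. Both Drd4 arrays lay below both Hb9 arrays in the pericyte sum, as in Lmo4, and in the sums of horizontal cell markers (874 and 631 in Hb9 against 196 and 269 in Drd4) and dividing cell markers (284 and 277 in Hb9 against 231 and 207 in Drd4). The Thy1 arrays lay above both lines in the pericyte sum (7592 and 8535) and the dividing cell sum (424 and 689). They lay between the lines in the horizontal cell sum (547 and 583) and overlapped with Hb9 in Lmo4. In the microglial sum the Drd4 arrays lay on both sides of the Hb9 arrays. Of 5 horizontal cell markers 1 passed, Calb1, a calcium-binding protein gene also found in ganglion cells, which was higher in Hb9 by 2.92 ± 0.31. Calb1 read 646 and 410 in the Hb9 arrays and 47.5 and 96.9 in the Drd4 arrays. It thus made up most of the horizontal cell sum on both Hb9 arrays. Of 13 Muller glia and progenitor markers Rlbp1 passed as higher in Hb9, while below background in both lines, and Dkk3 as lower, at -1.15 ± 0.16. Rlbp1 missed the threshold without either Hb9 replicate, Drd4 replicate 1 or either Thy1 replicate. Of 6 dividing cell markers 1 passed, Birc5, which was higher in Hb9 while below background in both lines and missed the threshold without either Hb9 replicate or Drd4 replicate 1. Onecut2 passed beside Calb1 with the replicate block, with only the compared groups or without either Thy1 replicate, and Onecut1 and Onecut2 did without Drd4 replicate 2. The part of other cells in the Lmo4 and Lmo1 differences was not tested.

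Horizontal cell markers were also read on the comparisons with Thy1, beside Lmo4 and Lmo2. In Drd4 against Thy1 3 of 5 passed as lower, namely Septin4 (-1.54 ± 0.16), Calb1 (-1.82 ± 0.31) and Onecut1 (adjusted p = 0.00492 in limma). In Hb9 against Thy1 Septin4 passed as lower (-1.19 ± 0.16). Their sum was 874 and 631 in Hb9, 196 and 269 in Drd4, and 547 and 583 in Thy1. In Hb9 against Thy1, Onecut1 stood lower (-0.54 ± 0.16) and Calb1 higher (1.10 ± 0.31), and both missed the threshold. Both passed, in these opposite directions, without either Drd4 replicate or with only the compared groups, and Calb1 did with an offset of 16. Of 9 amacrine markers Pax6, a gene that ganglion cells express too, passed as higher in Hb9 (0.71 ± 0.18) and in Drd4 (0.79 ± 0.18) than in Thy1. In Hb9 Pax6 missed the threshold without either Hb9 replicate or Thy1 replicate 1, with quantile normalisation, with no intensity trend and when probe sets were averaged. In Drd4 it missed it without Drd4 replicate 2 or Thy1 replicate 1 and when probe sets were averaged. Tfap2a went the other way and was lower in Hb9 than in Thy1 (-0.58 ± 0.16), but missed the threshold. It passed as lower, beside Pax6 as higher, without either Drd4 replicate, with only the compared groups or with array weights. The part of these cells in the Lmo4 and Lmo2 differences was not tested.

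Lmo2 encodes the LIM-only protein of blood and vessel development, where it bridges TAL1, GATA factors, E proteins and LDB1. Its probe set (1454086_a_at) read 112 and 102 in the Hb9 arrays, 115 and 112 in the Drd4 arrays, and 234 and 163 in the Thy1 arrays. Both Thy1 arrays lay above all the others, and Thy1 replicate 1 was well above replicate 2. Lmo2 was lower in Hb9 than in Thy1 by -0.87 ± 0.19 on the log2 scale (1.83-fold, adjusted p = 0.0241 in limma). In Drd4 against Thy1 the difference was -0.79 ± 0.19 (1.73-fold, adjusted p = 0.0373 in limma). Both comparisons use the same Thy1 arrays, so they are not separate evidence. Hb9 and Drd4 overlapped, at -0.08 ± 0.19 with an interval from -0.50 to 0.33 (adjusted p = 0.86 in limma).

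The Lmo2 calls depended on single arrays. Without Thy1 replicate 1 the Lmo2 difference was -0.61 in Hb9 (adjusted p = 0.172 in limma) and -0.53 in Drd4 (adjusted p = 0.233 in limma). The Hb9 difference also missed the threshold without Hb9 replicate 1 (-0.94, adjusted p = 0.0984) and without Hb9 replicate 2 (-0.80, adjusted p = 0.127). The Drd4 difference missed it without Drd4 replicate 1 (-0.81, adjusted p = 0.0878), without Drd4 replicate 2 (-0.77, adjusted p = 0.121), and, at the same -0.79, without Hb9 replicate 1 (adjusted p = 0.0548) or Hb9 replicate 2 (adjusted p = 0.0552). With only the Drd4 and Thy1 arrays in the model its adjusted p was 0.0558 in limma.

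Markers of microglia, pericytes and endothelium were read beside Lmo2. Of 12 microglial markers 11 passed as lower in Hb9 than in Thy1, with a median log2 difference of -2.36 beside 0.04 over all genes. In Drd4 11 passed as lower too, with a median of -2.25 beside 0.02 over all genes. Their summed intensity was 1656 and 2006 in Hb9, 2954 and 1046 in Drd4, and 11444 and 6635 in Thy1. In Thy1, replicate 1 was the higher array in this sum and in the endothelial sum, as in Lmo2, and replicate 2 was the higher in the pericyte and dividing cell sums. Drd4 replicate 1 had a microglial sum of 2954 and an Lmo2 intensity of 115, while Drd4 replicate 2 had 1046 and 112. Cx3cr1, a chemokine receptor gene of microglia, was lower by -2.33 ± 0.29 in Hb9 and -1.89 ± 0.29 in Drd4, and Csf1r, the receptor gene for a microglial growth factor, was lower by -2.48 ± 0.41 in Hb9 and -2.56 ± 0.41 in Drd4. Without Thy1 replicate 1, 6 microglial markers passed in Hb9, and with robust moderation 6 passed in Hb9 and 7 in Drd4. Itgam, an integrin gene of microglia, was below the background reference on all 6 arrays.

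Pericyte markers passed as lower in 3 of 6 for Hb9 (Pdgfrb, Kcnj8 and Abcc9) and 4 of 6 for Drd4 (the same genes and Rgs5). Their sum was 1809 and 1431 in Hb9, 1014 and 175 in Drd4, and 7592 and 8535 in Thy1. In Hb9 against Thy1, 1 pericyte marker, Kcnj8, passed without Hb9 replicate 1, without Thy1 replicate 1 or with robust moderation, and 5 passed without either Drd4 replicate or with only the compared groups. In Drd4 Kcnj8 was the 1 that passed with robust moderation. Of 10 endothelial markers Flt1, a VEGF receptor gene, passed as lower in Hb9 (-0.98 ± 0.17) and in Drd4 (-1.06 ± 0.17), though in Hb9 it missed the threshold when Hb9 replicate 2 was left out (adjusted p = 0.0649 in limma) and when Thy1 replicate 1 was (adjusted p = 0.0707). The endothelial sum was 521 and 491 in Hb9, 519 and 486 in Drd4, and 662 and 608 in Thy1. Flt1, Kdr, Eng and Esam were above the background reference on all 6 arrays, Erg on 2 and Cdh5 on 1, while Pecam1, Tek, Tie1 and Cldn5 were below it on all 6. Esam stood at -0.43 ± 0.16 in Hb9 and -0.52 ± 0.16 in Drd4 against Thy1 and did not pass (adjusted p = 0.135 and 0.107 in limma). Dividing cell markers were lower in 4 of 6 for Hb9 (Mki67, Top2a, Cdk1 and Aurkb) and 5 of 6 for Drd4 (Mki67, Top2a, Cdk1, Birc5 and Ccna2). Aurkb was below the background reference on all 6 arrays, and Birc5 was above it on 1. The sums of dividing cell markers were 284 and 277 in Hb9, 231 and 207 in Drd4, and 424 and 689 in Thy1. The Hb9 calls other than Top2a did not hold without Hb9 replicate 2. The part of these cells in the Lmo2 difference was not tested.

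**Figure D3:**
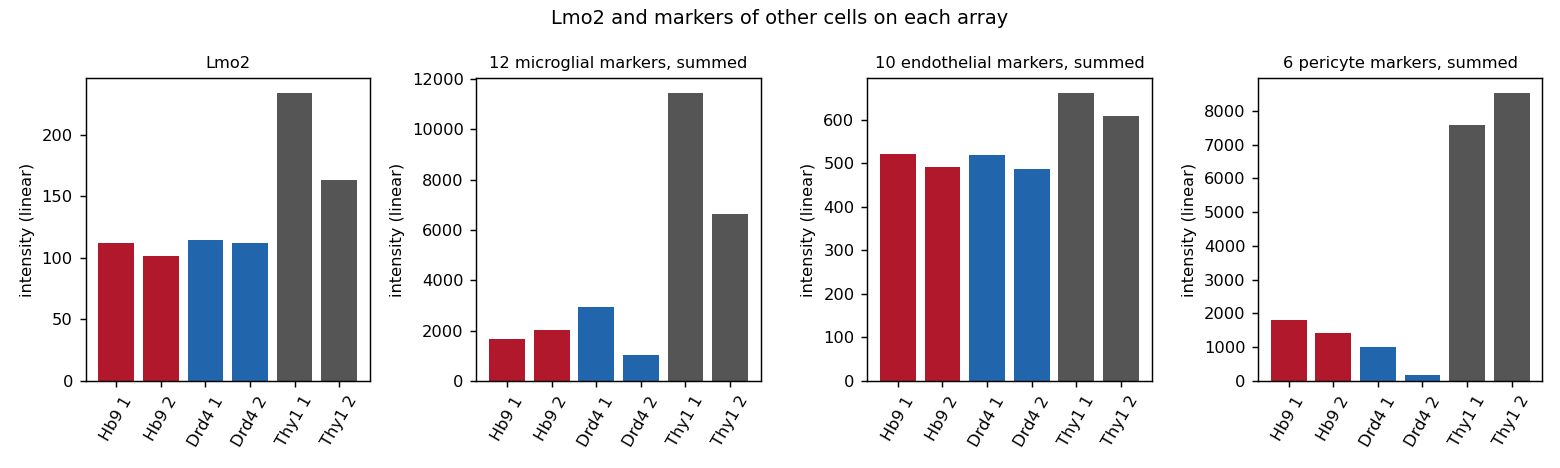
Linear intensity (y axis, from 0) of Lmo2 and the summed intensities of 12 microglial, 10 endothelial and 6 pericyte markers on each array (x axis), with bars coloured by group. The Thy1 arrays read 234 and 163 for Lmo2 and 11444 and 6635 for the microglial sum, and replicate 1 is the higher of them in both and in the endothelial sum, while replicate 2 is the higher in the pericyte sum.

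Ldb2 and Ldb1 encode the LIM domain-binding cofactors. The leading Ldb2 probe set (1439557_s_at) read 392 and 511 in the Hb9 arrays, 640 and 482 in the Drd4 arrays, and 434 and 553 in the Thy1 arrays. The groups overlapped, and no comparison passed. Its differences were -0.13 ± 0.20 in Hb9 against Thy1 (interval -0.58 to 0.32), 0.18 ± 0.20 in Drd4 against Thy1 (interval -0.27 to 0.63) and -0.31 ± 0.20 in Hb9 against Drd4 (interval -0.76 to 0.14). By its name this probe set can match more than 1 transcript.

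The other Ldb2 probe sets did not all give the same picture. The probe set 1421101_a_at read 106 and 105 in the Hb9 arrays, 155 and 190 in the Drd4 arrays, and 116 and 152 in the Thy1 arrays. Here the groups were apart, in the order seen for Lmo1, with Drd4 highest and Hb9 lowest. In a fit over all 45037 probe sets it passed as lower in Hb9 than in Drd4, at -0.70 ± 0.18 (1.62-fold, adjusted p = 0.0477 in limma), and did not pass in Hb9 against Thy1 (-0.33 ± 0.18, adjusted p = 0.349) or in Drd4 against Thy1 (0.37 ± 0.18, adjusted p = 0.455). The dimmest probe set, 1456786_at, read 44.9 and 61.0 in the Hb9 arrays, 81.3 and 45.3 in the Drd4 arrays, and 44.7 and 56.1 in the Thy1 arrays. Its groups overlapped, and Hb9 against Drd4 was -0.21 ± 0.26 in that fit (adjusted p = 0.733 in limma). All 3 probe sets had a negative difference between the lines, and 1 of 3 passed. That call was not run under the alternatives, which were fitted with 1 value a gene. Ldb2 as a gene did not pass between the lines in any of the 16 alternatives, the mean of its probe sets included.

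Ldb1 was close to the background reference. Its probe set (1452024_a_at) read 36.1 and 34.6 in the Hb9 arrays, 27.1 and 35.6 in the Drd4 arrays, and 36.7 and 37.8 in the Thy1 arrays. Both Hb9 and both Drd4 arrays lay below their references, and both Thy1 arrays lay just above theirs. No comparison passed, with adjusted p-values in limma of 0.824 in Hb9 against Thy1, 0.523 in Drd4 against Thy1 and 0.564 in Hb9 against Drd4. In Drd4 against Thy1 the difference was -0.26 ± 0.15, with an interval from -0.60 to 0.08. No fold is given for either line, because their arrays lay below background.

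Lmo3 encodes a LIM-only protein of neurons that is closely related to LMO1. Its probe set (1455754_at) read 61.9 and 50.2 in the Hb9 arrays, 55.4 and 39.5 in the Drd4 arrays, and 53.8 and 46.9 in the Thy1 arrays. All 6 values were above the background reference and the groups overlapped. The differences of 0.15 ± 0.19 in Hb9 against Thy1, -0.10 ± 0.19 in Drd4 against Thy1 and 0.25 ± 0.19 in Hb9 against Drd4 did not pass (adjusted p = 0.697, 0.901 and 0.519 in limma). The interval between the lines ran from -0.16 to 0.67.

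Lhx2, the LIM-homeodomain member, was not above the background reference on any array. Its probe set (1418317_at) read 16.7 and 14.1 in the Hb9 arrays, 15.0 and 15.4 in the Drd4 arrays, and 14.6 and 16.3 in the Thy1 arrays. The groups overlapped, and no fold is given because all groups were below background. Muller glia and progenitor markers, read beside it because Lhx2 is known from those cells, were lower in 2 of 13 for Hb9 and 2 of 13 for Drd4 against Thy1. These were Vim (-1.73 ± 0.19 in Hb9, with an adjusted p of 0.000218 in Drd4 by limma) and Apoe (-2.56 ± 0.41 in Hb9 and -3.01 ± 0.41 in Drd4). Dkk3 was higher in Drd4 (1.12 ± 0.16). In the Thy1 arrays Vim read 885 and 1340, and Apoe 462 and 241. Rlbp1, Sox2 and Kcnj10 of the same list were below the background reference on all 6 arrays. Glul, Clu, Hes1, Vim and Dkk3 were above it on all 6, Slc1a3 and Apoe on 5, Sox9 and Hes5 on 3, and Aqp4 on 2. Which cells the Vim and Apoe signal came from was not tested.

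The other LIM-homeodomain genes were described as a list of 11 measured genes. None passed between Hb9 and Thy1 in limma, where 0 were called and 1 had an unadjusted p under 0.05. Isl1 read 2979 and 3305 in the Hb9 arrays, 856 and 794 in the Drd4 arrays, and 2637 and 2881 in the Thy1 arrays. The Drd4 arrays were far below the rest, and Isl1 was the 1 gene of the list called in Drd4 against Thy1. Between the lines 2 of 11 passed, both higher in Hb9, with Isl1 at 1.93 ± 0.12 (3.80-fold) and its paralog Isl2 at 0.73 ± 0.15 (1.66-fold). Isl2 read 187 and 161 in the Hb9 arrays, 101 and 108 in the Drd4 arrays, and 140 and 134 in the Thy1 arrays. Isl2 missed the threshold when Hb9 replicate 1 was left out (adjusted p = 0.189 in limma), when Hb9 replicate 2 was (adjusted p = 0.0582) and when Drd4 replicate 1 was (adjusted p = 0.101). Of all genes 6.71% were called in Hb9 against Thy1, 5.47% in Drd4 against Thy1 and 6.12% in Hb9 against Drd4. The list median between the lines was 0.03, beside 0.04 over all genes. Lhx1, Lhx5, Lhx6, Lhx8 and Lmx1a were below the background reference on all 6 arrays.

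Partners of LDB and LMO proteins were described as a list of 17 genes, 16 of them measured, made up of SSBP proteins, which stabilise LDB, the LDB ubiquitin ligase gene Rlim, bHLH genes, GATA genes and Deaf1. In Hb9 against Thy1, where 6.71% of all genes were called, the E protein gene Tcf4 was the 1 gene called. It stood at -1.21 ± 0.17 (2.32-fold lower in Hb9). Tcf12, a related E protein gene, stood at -0.66 ± 0.18 and missed the threshold (adjusted p = 0.0586 in limma). It passed in 6 alternatives, which brought the count to 2, namely quantile normalisation, no intensity trend, array weights, only the compared groups, and either Drd4 replicate left out. In Drd4 against Thy1, where 5.47% of all genes were called, the neuronal bHLH gene Nhlh2 was the 1 gene called and lower in Drd4. Its Drd4 arrays were below background, so it was at least 1.59-fold lower (adjusted p = 0.00241 in limma). Tcf4 stood at 0.66 ± 0.17 in Drd4 against Thy1 and missed the threshold (adjusted p = 0.0596 in limma). It passed as higher in Drd4 with only the compared groups or without either Hb9 replicate, Ssbp2 without Thy1 replicate 2, and both with the mean of all probe sets.

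Between the lines 2 of the 16 partners passed, in opposite directions, beside 6.12% of all genes. Tcf4 read 425 and 611 in the Hb9 arrays, 1943 and 1794 in the Drd4 arrays, and 1224 and 1140 in the Thy1 arrays. It was lowest in Hb9 and highest in Drd4, with no overlap, and the Hb9 minus Drd4 difference was -1.87 ± 0.17 (3.67-fold, adjusted p = 0.000198 in limma). Nhlh2 read 67.6 and 58.0 in the Hb9 arrays, 27.7 and 27.5 in the Drd4 arrays, and 55.0 and 51.5 in the Thy1 arrays. It was at least 1.86-fold higher in Hb9 than in Drd4 (adjusted p = 0.000758 in limma). Ssbp2 read 275 and 300 in the Hb9 arrays, 467 and 504 in the Drd4 arrays, and 251 and 390 in the Thy1 arrays. Its difference between the lines of -0.76 ± 0.20 did not pass (adjusted p = 0.0605 in limma). Ssbp3 (-0.15 ± 0.13), Rlim (0.27 ± 0.15) and Deaf1 (0.22 ± 0.15) did not pass between the lines either.

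**Figure D4:**
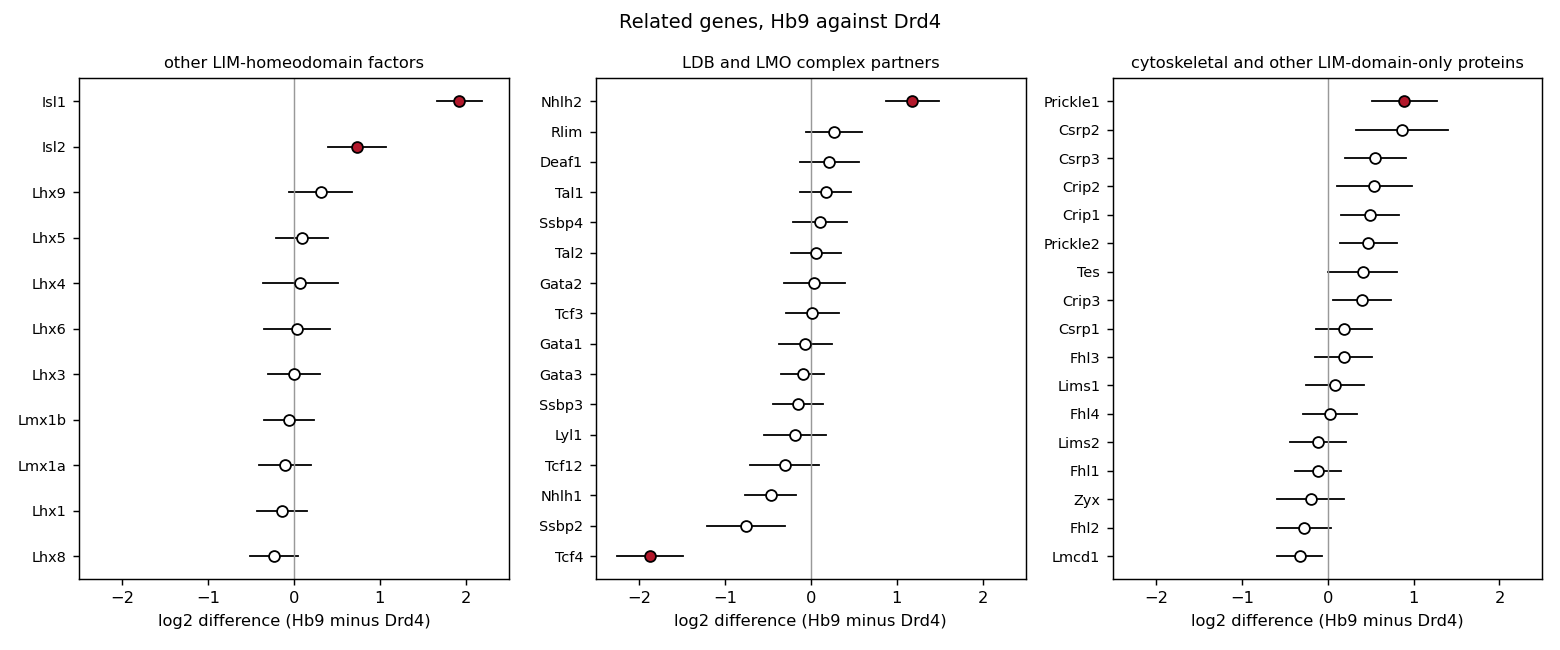
Log2 difference, Hb9 minus Drd4 (x axis), of related genes in 3 lists, with 95% confidence intervals from limma. Filled points have an adjusted p under 0.05 over all genes. Isl1, Isl2, Nhlh2 and Prickle1 are filled on the side of Hb9 and Tcf4 on the side of Drd4.

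LIM-domain genes outside the LMO family, mostly of the cytoskeleton and cell contacts, were described as a list of 17 measured genes. Crip1, a small cysteine-rich LIM protein gene, read 49.2 and 50.8 in the Hb9 arrays, 37.8 and 33.4 in the Drd4 arrays, and 133 and 163 in the Thy1 arrays. It was lower than in Thy1 by -1.56 ± 0.15 in Hb9 and by -2.05 ± 0.15 in Drd4, both called (adjusted p = 0.000724 and 5.81e-05 in limma). Lims1, an adaptor gene of integrin contacts, was lower as well, at -0.83 ± 0.15 in Hb9 and -0.91 ± 0.15 in Drd4. Prickle1, a planar polarity gene, was higher in Hb9 than in Thy1 (0.85 ± 0.17) and than in Drd4 (0.89 ± 0.17). In all 1 was higher and 2 lower in Hb9 against Thy1, 0 higher and 2 lower in Drd4 against Thy1, and 1 higher and 0 lower in Hb9 against Drd4. Over all genes 6.71%, 5.47% and 6.12% were called in these comparisons, in the same order. Without either Hb9 replicate, Lims1 and Prickle1 missed the threshold in Hb9 against Thy1 (adjusted p from 0.0754 to 0.111 in limma). There Lims1 also missed it without Thy1 replicate 1 (adjusted p = 0.0503), and Prickle1 without Thy1 replicate 2 (adjusted p = 0.0616) and, at 0.32, when its probe sets were averaged (adjusted p = 0.148). In Drd4 against Thy1, Lims1 missed it at -0.43 when its probe sets were averaged (adjusted p = 0.06). Between the lines Prickle1 missed it without Hb9 replicate 1 (adjusted p = 0.0944), Hb9 replicate 2 (0.0831) or Drd4 replicate 2 (0.0531) and, at 0.31, when its probe sets were averaged (0.18). Csrp2 and Csrp3 joined Prickle1 without either Thy1 replicate or with only the compared groups, and Csrp2 joined it with the replicate block.

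Genes whose pattern over the 6 arrays was closest to a called member were found by the root mean square distance of log2 values centred on each gene. The candidates were 13746 genes above background on at least 1 array, with members and genes with clone or model names passed over. Closest to Lmo2 were Cebpa, a transcription factor gene of myeloid cells, at a distance of 0.0497, Tlr7, an innate immune receptor gene, at 0.0525, and Cd86, a co-stimulatory molecule of antigen-presenting cells, at 0.0643. Tlr7 was above the background reference on 2 arrays, both Thy1, and Cd86 on 3, both Thy1 arrays and Drd4 replicate 1, so they entered largely through the group where they are high and their distances rest on values below background in the other arrays. Cebpa, above the reference on all 6 arrays, read 74.3 and 62.5 in the Hb9 arrays, 78.5 and 70.6 in the Drd4 arrays, and 150 and 104 in the Thy1 arrays. Closest to Lmo4 were Magi3, a scaffold protein gene, at 0.0632, Limd2, another LIM-domain gene, at 0.0871, and Smc4, a condensin subunit gene, at 0.0905. Limd2 read 477 and 404 in the Hb9 arrays, 253 and 229 in the Drd4 arrays, and 346 and 403 in the Thy1 arrays. Closest to Lmo1 were Sobp at 0.0728, Zcchc18 at 0.0775 and Olfm1, a secreted neuronal glycoprotein gene, at 0.0775. Sobp read 83.9 and 83.4 in the Hb9 arrays, 137 and 142 in the Drd4 arrays, and 97.7 and 112 in the Thy1 arrays. These distances describe 6 arrays in 3 groups and carry no test.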

How the data were processed

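RNA of sorted cells was hybridised to Affymetrix mouse arrays after 2 rounds of amplification, per the labels' protocols. The authors deposited probe set intensities, whereas the sources used here do not give their background correction, summarisation and normalisation. Probe sets were named with the platform annotation, of which 34754 were matched to the mouse RefSeq table by Entrez identifier. Log2 was taken without an offset. The brightest probe set on average stood for each gene. A mean per group was fitted with limma 3.58.1 in R 4.3.3 to all 6 arrays, with 3 residual degrees of freedom and variance moderated along an intensity trend, and a second fit covered all 45037 probe sets.

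Members and lists were chosen with earlier results of these data known. Every member and probe set is named. Other genes are named where they passed as members of a list, up to 8 a list, with the microglial list given by examples, or where their pattern was among the 3 closest to a called member. Rlim, Deaf1, Tcf12, Ssbp2, Ssbp3, Csrp2, Csrp3, Onecut2, Tfap2a, Itgam, Sox2 and Kcnj10 are named outside this rule, after their values were seen. So are Prox1, the endothelial genes other than Flt1, the LIM-homeodomain genes below background and the uncalled Muller glia and progenitor genes. The procedure was tested on simulated data with independent normal values. The simulated shifts were larger than any member difference, so the check does not cover differences of these sizes. The lists were run under the alternatives by a choice made after the data were seen. Alternatives were other scalings, probe set summaries, filters, moderation, an offset of 16, array weights, only the compared groups, the replicate number as a block, and each array left out. The number of arrays limits the precision.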

Additional observations from a re-analysis of the deposited data

Results flagged for a closer look

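By the direct test of Hb9 against Drd4 in limma, 2 members differed between the lines. Neither call held with every single array left out in turn, as given above. Lmo4 differed by 0.93 on the log2 scale as Hb9 minus Drd4, with both Hb9 arrays above both Drd4 arrays. Lmo1 differed by -0.79, with both Hb9 arrays below both Drd4 arrays. Groups of 2 arrays are too small to look for single arrays that stand apart.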

How the results depend on the processing

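The 7 members in 3 comparisons gave 333 values under the alternatives, of which 302 kept their direction and side of the threshold, 15 called values no longer passed and 16 uncalled values changed sign. No called value changed sign. Members called in Drd4 against Thy1 fell to 1 with only the compared groups in the model. With 1 array left out, called members ranged from 0 to 1 in Hb9 against Thy1, from 0 to 1 in Drd4 against Thy1 and from 0 to 2 in Hb9 against Drd4. Called genes over the whole array then ranged from 315 to 1633, from 666 to 922 and from 411 to 1244 in the same order, against 1220, 995 and 1113 with all arrays. The lone array of a group is then assumed to vary like the others. The cause of these changes was not tested beyond the smaller number of arrays. With the replicate block, the members called stayed at 1, 2 and 2, and called genes numbered 1156, 985 and 1030. Replicate 1 deviations correlated across genes at -0.28 between Hb9 and Drd4, -0.19 between Hb9 and Thy1 and 0.37 between Drd4 and Thy1. With 2 arrays in each group these values cannot tell whether the numbers mark pairs, and the labels do not say so. Lhx2 has no value with dim genes left out. Of Hb9 against Thy1 calls, 640 were higher and 580 lower, against 854 and 536 with median centring, 453 and 580 with quantile normalisation, and 483 and 584 with the mean of all probe sets.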
